A study of Brassica napus with 6 samples.

Results

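Lipid metabolism and GDSL lipase genes were described in the silique wall, the outer tissue of the pod, of rapeseed (Brassica napus). They are the listed genes whose functional class in the deposited table begins with lipid metabolism or with GDSL-motif lipase, without those in the first 6 Mb of chromosomes A02 and C02. The rule found 38 of the 3248 listed genes, and 2 further genes lay in the left-out chromosome ends. By their class the 38 genes fall into 1 lipid transfer gene, 6 GDSL lipases, 4 genes of fatty acid synthesis and hydroxylation, 10 genes of membrane lipid and glycerol metabolism, 11 breakdown genes and 6 sterol and sphingolipid genes. None of them (0 of 38) is described as an enzyme of fatty acid elongation.

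RNA was taken 15 days after flowering. One pool mixed equal shares of wall tissue from 12 long-silique accessions and the other from 11 short-silique accessions, all of them lines of an association population. Each pool was sequenced as 3 libraries, here called long and short replicates 1 to 3. A pool averages its accessions, so differences among them cannot be seen. The labels do not tell whether separate plants stood behind the 3 libraries of each pool. The p-values therefore reflect only how far these libraries spread, which may be technical.

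As background, plant fatty acids are made in plastids, released by acyl-ACP thioesterases, and built into membrane lipids, storage oil, and the wax and cutin of the cuticle that covers pods and leaves. Lipid transfer proteins are small secreted proteins that bind lipids, and many are made in the epidermis. GDSL esterases/lipases are a large family of mostly secreted hydrolases, some of which build cutin or act in defence. Lipases, phospholipases and the beta-oxidation pathway break lipids down.

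Because a gene had to be called by the authors to be listed, all 38 genes were selected on these same libraries. Testing them again gives no independent evidence, and lipid genes outside the list were not analysed here. The deposited log2 fold change of every listed gene, up or down, is 1 or larger in size. Changes close to that limit therefore cannot be read as a feature of lipid genes. The libraries held, by totals worked out from counts and FPKM, between 22892442 and 30259269 reads, and the lipid genes held between 0.0141% and 0.0199% of them. Levels are given in CPM, counts scaled to these totals, and a floor of 3 counts in 1 library equals between 0.0991 and 0.131 CPM. Of the loci chosen as markers of other tissues, 0 of 8 seed loci and 1 of 3 petal, stamen and pollen loci were in the table. That gene, the floral regulator PISTILLATA (BnaA10g15180D), had 5, 1 and 1 counts in the long libraries and 11, 9 and 9 counts in the short libraries. Its part in the results was not tested. The 5 markers of silique wall identity were not in the table, so the labelled tissue could not be checked against them.

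The lipid genes did not move as one group between long and short siliques. Among the tested genes, the largest rises were those of a lipid transfer protein gene, LTP6, and of a GDSL lipase gene, CPRD49, and the largest fall was that of PSD2, which makes phosphatidylethanolamine. By the authors' deposited table, the long pool had 15 of the 38 genes higher and 23 lower, that is 39.5% higher against 34.4% of all listed genes. Of the 33 genes with enough reads to be tested, 21 passed, 10 of them higher and 11 lower (edgeR quasi-likelihood test, Benjamini-Hochberg adjusted over 65264 genes). This is 63.6% of those tested, close to the 66.6% of all tested genes that passed. Of all tested genes, 23.1% passed as higher and 43.5% as lower. In bulk tissue, fewer cells of a type and less RNA per cell cannot be told apart, for these and all further differences. The pools did not overlap in 36 of the 38 genes, against 95.3% of all listed genes. The median log2 fold change of the tested lipid genes, long over short, was -1.17, against -1.22 for all tested genes. Both medians lie close to the smallest size of change among listed genes (1 in the deposited values), so their likeness says little.

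**Figure D1:**
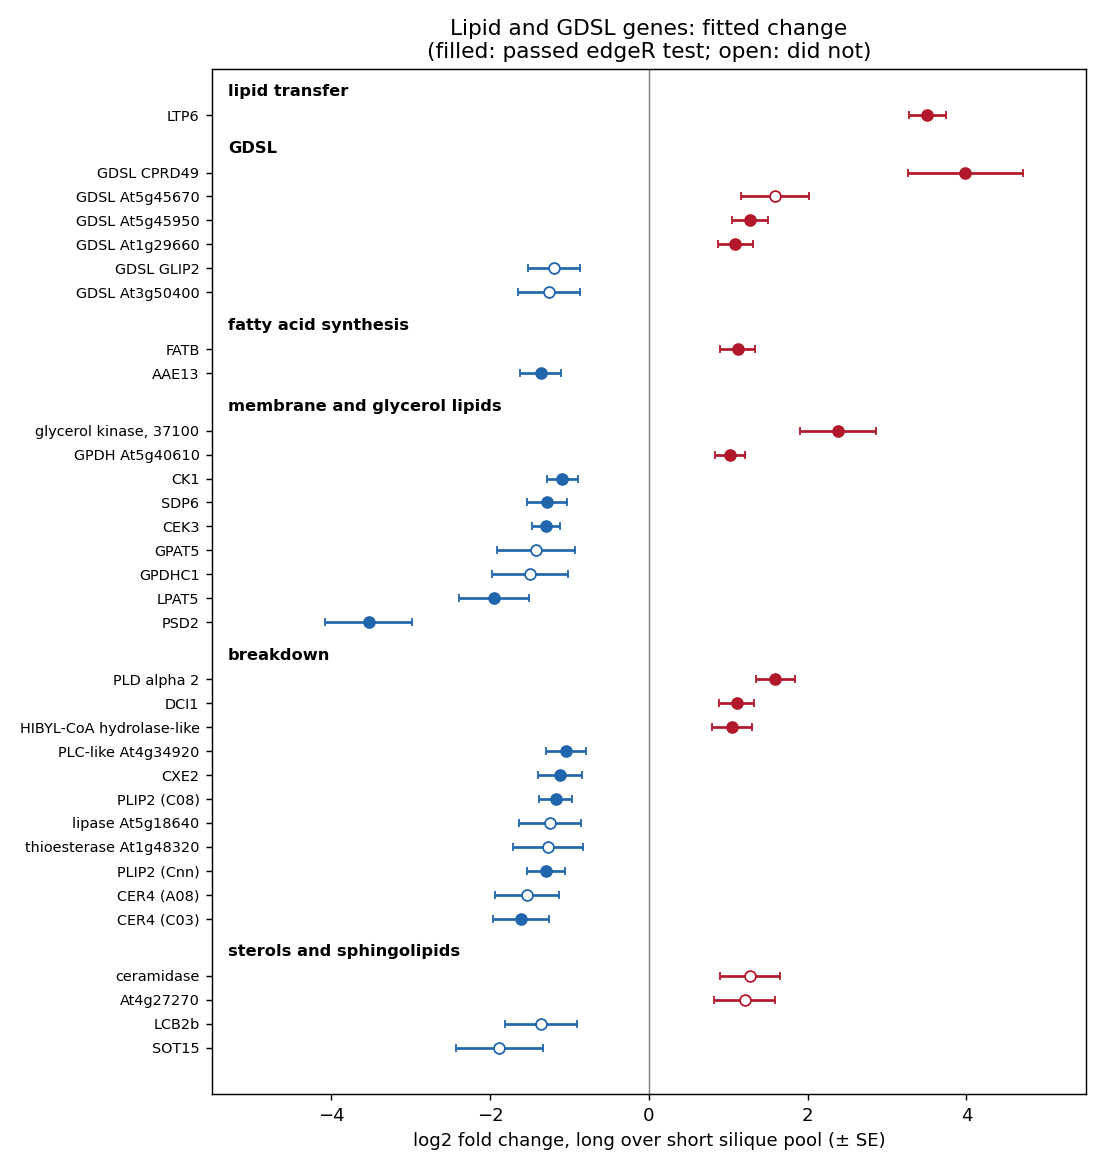
Log2 fold change (horizontal axis, long over short silique pool, with its standard error) of the 33 tested lipid and GDSL genes (rows), grouped by role and sorted by change; red is higher and blue lower in the long pool. Filled points (21) passed the edgeR test and open points (12) did not; LTP6, GDSL CPRD49 and PSD2 lie farthest from 0.

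The calls depend on the scaling. With TMM factors over the listed genes, which shifted all genes upward by a median of 0.78 (log2), the sign of no tested lipid gene changed (0 of 33). Under that scaling 13 genes passed as higher and 1 as lower, and the gene called lower was PSD2. The other 10 falls described here ended with TMM, as they did with size factors from DESeq2, and both scalings assume mostly unchanged genes. Leaving out each library in turn kept 10 of the 21 calls in all 6 fits.

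Among the genes of lipid transfer, the class holds 1 gene. BnaC05g43760D (C05, 40447736 to 40454797) is described as non-specific lipid-transfer protein 6 (LTP6), a small secreted lipid-binding protein. It stood at 43.7, 53.6 and 38.0 CPM in the long libraries, against 4.59, 2.63 and 4.68 CPM in the short libraries. Every long library lay far above every short one. The fitted log2 change was 3.51 ± 0.24 (SE; edgeR adjusted p = 2.20e-07), and it stayed between 3.28 and 3.65 without any 1 library. LTP6 alone held between 23.3% and 27.0% of all reads of the 38 genes in the long libraries and between 1.83% and 3.32% in the short libraries. With LTP6 the 38 genes summed to between 163 and 199 CPM in the long libraries, against 141 to 144 CPM in the short libraries. Without it they summed to between 125 and 145 CPM in the long libraries and between 137 and 141 CPM in the short libraries, which overlap. The deposited FPKM of LTP6 imply a length of 7064 bases, the whole span of the gene model (7062 bases), which is long for a gene of a small protein. Its FPKM of 6.38 ± 1.12 in long siliques, against 0.560 ± 0.165 in short siliques (SD, n = 3), rests on that length, and whether all its reads belong to 1 gene was not tested.

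**Figure D2:**
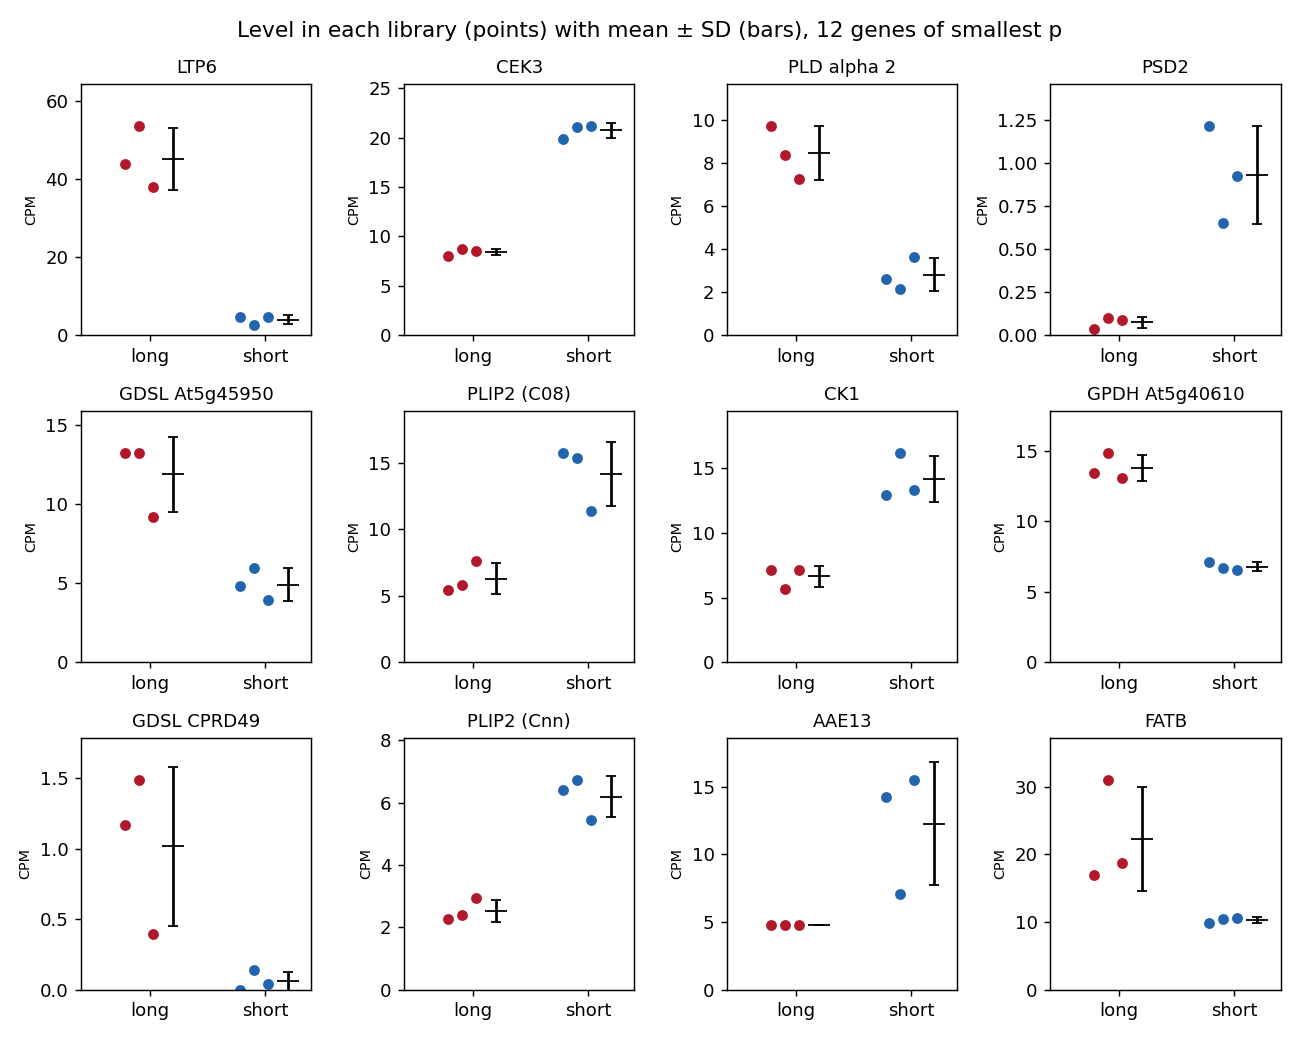
Level in CPM (vertical axes, each from 0) of the 12 lipid and GDSL genes with the smallest p, in the 3 long libraries (red) and the 3 short libraries (blue), with the mean and SD of each pool as black bars. No gene shown overlaps between the pools; LTP6 averaged 45.1 CPM in the long and 3.97 CPM in the short pool, and FATB and AAE13 show 1 library apart within a pool.

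Of the 6 GDSL lipase genes, 3 rose in the long pool, 0 fell and 3 did not pass the test. That is 50% called, against 66.6% of all tested genes (23.1% higher and 43.5% lower). The largest change was that of BnaA01g30950D (A01, 21090013 to 21092011), described as GDSL esterase/lipase CPRD49. It had 30, 45 and 9 counts in the long libraries, against 0, 4 and 1 counts in the short libraries. Long replicate 3 was the lowest of its pool, and still above all short libraries. In log2 terms the change was 3.99 ± 0.72 (SE; edgeR adjusted p = 0.00418), with a range from 3.48 to 5.45 when 1 library was left out. This gene reached 1.02 ± 0.562 CPM (SD, n = 3) in the long pool, so its change rests on few reads.

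Both other GDSL genes that rose are better covered. BnaC02g32000D (C02, 34417374 to 34420090), the counterpart of Arabidopsis At5g45950, stood at 13.3, 13.2 and 9.17 CPM in the long libraries, against 4.83, 5.98 and 3.95 CPM in the short libraries. The pools did not overlap, and its log2 fold change was 1.27 ± 0.23 (SE; edgeR adjusted p = 0.00316). BnaC07g09690D (C07, 15127425 to 15129585), the counterpart of At1g29660, stood at 6.80, 7.70 and 7.16 CPM in the long libraries, against 2.98, 3.79 and 3.39 CPM in the short libraries. Values within each pool lay close together, and the log2 fold change was 1.09 ± 0.22 (SE; edgeR adjusted p = 0.00820). Without long replicate 2 its call ended, at a log2 fold change of 1.04 (edgeR adjusted p = 0.0557).

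The 3 GDSL genes that missed the threshold went both ways. BnaC09g18630D (At5g45670) stood at 1.87, 2.15 and 0.830 CPM in the long libraries, against 0.392, 0.410 and 0.811 CPM in the short libraries. Long replicate 3 and short replicate 3 nearly met. The fitted change of 1.59 ± 0.43 (SE, log2; edgeR adjusted p = 0.0639) passed without long replicate 3, at 1.89. BnaA08g00970D, described as GDSL esterase/lipase 2 (GLIP2) and given At1g53990, stood at 1.52, 1.16 and 1.53 CPM in the long libraries, against 1.81, 3.45 and 4.32 CPM in the short libraries. Short replicate 1 was the lowest of its pool, and without it the fitted change of -1.19 ± 0.33 (SE, log2; edgeR adjusted p = 0.0790) became -1.47 and passed. BnaC01g42330D (At3g50400) had a fitted log2 change of -1.26 ± 0.39 (SE; edgeR adjusted p = 0.159).

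In fatty acid synthesis, a thioesterase gene rose and a malonyl-CoA synthetase gene fell. BnaC08g43130D (C08, 36997707 to 37000332) is described as palmitoyl-ACP thioesterase, in Arabidopsis FATB, which releases saturated fatty acids from the plastid synthase. It stood at 17.0, 31.0 and 18.8 CPM in the long libraries, against 9.81, 10.4 and 10.6 CPM in the short libraries. Long replicate 2 stood apart from the other long libraries, while the short libraries lay close together. The log2 change amounted to 1.12 ± 0.22 (SE; edgeR adjusted p = 0.00691), and it was 0.80 without long replicate 2, where the call ended (edgeR adjusted p = 0.0630).

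BnaA01g28170D (A01, 19676939 to 19680770) is described as malonate-CoA ligase, acyl-activating enzyme 13 (AAE13), which makes malonyl-CoA from malonate. It was steady in the long libraries, at 4.74, 4.79 and 4.76 CPM, and spread widely in the short libraries, at 14.2, 7.08 and 15.5 CPM. Short replicate 2 was the lowest of its pool, yet above all long libraries. On the log2 scale the difference was -1.36 ± 0.26 (SE; edgeR adjusted p = 0.00562). The call ended without long replicate 1 (log2 fold change -1.36, edgeR adjusted p = 0.0665) or without long replicate 2 (-1.37, edgeR adjusted p = 0.0513), with fewer samples and nearly the same size of change.

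Another 2 genes of this class had too few reads to be tested. BnaA05g09070D, described as fatty acid 2-hydroxylase 1 (FAH1), an enzyme that hydroxylates the fatty acids of sphingolipids, had 0, 0 and 0 counts in the long libraries, against 1, 15 and 18 counts in the short libraries. It was at least 10.9-fold lower in the long pool, taking 3 counts over the pool as the floor, and short replicate 1 was near 0 as well. It had enough reads for the test in 4 of the 6 fits that left out a library. It did not pass without long replicate 1, 2 or 3 (edgeR adjusted p = 0.171, 0.185 and 0.129), and it passed without short replicate 1, its lowest short library (edgeR adjusted p = 0.00266). With no filter on low counts it did not pass (edgeR adjusted p = 0.0502). BnaA06g20370D, described as the peroxisomal acyl-activating enzyme 12, had 3, 0 and 2 counts in the long libraries, against 3, 14 and 8 counts in the short libraries. Intervals and floors here cover counting error only.

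All 5 genes of the phospholipid synthesis class were lower in the long pool, while 34.4% of all listed genes were higher there. By the test 4 of the 5 fell, against 43.5% of all tested genes that were called lower. These 5 genes are too few to read against that background. A pair of choline kinase genes, whose products add phosphate to choline as an early step towards phosphatidylcholine, was the most highly expressed of them. BnaC09g25860D (C09, 25659082 to 25663267), described as probable choline kinase 3 (CEK3), stood at 8.04, 8.69 and 8.56 CPM in the long libraries, against 19.9, 21.1 and 21.2 CPM in the short libraries. Both pools were tight, with means of 8.43 ± 0.342 CPM in the long and 20.7 ± 0.749 CPM in the short pool (SD, n = 3). The fitted log2 change was -1.30 ± 0.18 (SE; edgeR adjusted p = 0.000317). BnaC06g32670D (C06, 32786065 to 32788006), described as probable choline kinase 1 (CK1), stood at 7.15, 5.68 and 7.12 CPM in the long libraries, against 12.9, 16.2 and 13.3 CPM in the short libraries. The pools did not overlap, and the log2 fold change was -1.09 ± 0.20 (SE; edgeR adjusted p = 0.00356).

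PSD2 had the largest fall of the tested lipid genes. BnaA10g11230D (A10, 9494925 to 9498849) is described as phosphatidylserine decarboxylase proenzyme 2, which turns phosphatidylserine into phosphatidylethanolamine. It had 1, 3 and 2 counts in the long libraries, against 31, 19 and 25 counts in the short libraries. All long libraries were at or under the floor of 3 counts. In log2 terms the change was -3.53 ± 0.55 (SE; edgeR adjusted p = 0.000991) and lay between -3.24 and -3.80 when 1 library was left out. PSD2 stood at 0.929 ± 0.284 CPM (SD, n = 3) in the short pool, so it was a low transcript there too.

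The acyltransferase genes of this class were low as well. BnaA06g17420D (A06, 9916968 to 9917623), described as probable lysophosphatidate acyltransferase 5 (LPAT5), which adds the second fatty acid in glycerolipid assembly, stood at 0.155, 0.595 and 0.437 CPM in the long libraries, against 1.57, 1.13 and 1.99 CPM in the short libraries. Long replicate 1 was the lowest, and the pools did not overlap. This gene model spans 656 bases, and whether it covers a whole gene was not tested. The log2 change amounted to -1.95 ± 0.44 (SE; edgeR adjusted p = 0.0191). The call ended without long replicate 1 (-1.57), long replicate 3 (-2.01), short replicate 1 (-1.94) or short replicate 3 (-1.74), and with the replicate block (-1.97). BnaCnng31250D, described as glycerol-3-phosphate acyltransferase 5 (GPAT5), in Arabidopsis an enzyme of suberin synthesis, had 5, 9 and 10 counts in the long libraries, against 25, 32 and 11 counts in the short libraries. Its CPM overlapped between long replicate 3 and short replicate 3, and its log2 fold change of -1.42 ± 0.49 (SE) did not pass (edgeR adjusted p = 0.281).

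The 5 gene models of the glycerol class were 3 higher and 2 lower, where 34.4% of all listed genes were higher. Of the 4 tested, 2 were called higher and 1 lower, against 23.1% and 43.5% of all tested genes, and so few models allow no reading against that background. BnaC06g42250D (C06_random, 1625560 to 1627789), described as an NAD-dependent glycerol-3-phosphate dehydrogenase and given At5g40610, makes the glycerol backbone of glycerolipids. It stood at 13.4, 14.9 and 13.1 CPM in the long libraries, against 7.14, 6.67 and 6.57 CPM in the short libraries. On the log2 scale the difference was 1.02 ± 0.19 (SE; edgeR adjusted p = 0.00369), and the call survived the omission of any single library. BnaC04g01960D, described as another NAD-dependent enzyme of the same kind (GPDHC1), stood at 0.311, 0.397 and 0.393 CPM in the long libraries, against 0.667, 1.78 and 0.664 CPM in the short libraries. Short replicate 2 stood apart, and its log2 fold change of -1.50 ± 0.48 (SE) did not pass (edgeR adjusted p = 0.186).

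The other glycerol genes act in the use of glycerol. BnaC01g38650D (C01, 37635192 to 37638272), described as the mitochondrial dehydrogenase SUGAR-DEPENDENT 6 (SDP6), which feeds glycerol from oil into respiration, stood at 2.25, 2.35 and 1.70 CPM in the long libraries, against 5.93, 4.79 and 4.68 CPM in the short libraries. The fitted log2 change was -1.28 ± 0.26 (SE; edgeR adjusted p = 0.00753). A glycerol kinase, which phosphorylates free glycerol, is covered by a pair of adjacent gene models on C02 that are 89 bases apart. BnaC02g37100D (C02, 40046044 to 40046774) had 19, 17 and 20 counts in the long libraries, against 4, 5 and 2 counts in the short libraries. In log2 terms the change was 2.38 ± 0.48 (SE; edgeR adjusted p = 0.00808). The call ended without long replicate 1 (2.36), long replicate 3 (2.23), short replicate 1 (2.50) or short replicate 3 (2.10), and with the replicate block (2.37). BnaC02g37110D (C02, 40046864 to 40047112) had 21 counts over the long pool and 1 over the short pool, which is 21.8 times as many after scaling (95% exact interval for counting error, 3.50 to 901). The models share an Arabidopsis locus (AT1G80460) and may be parts of 1 gene, so they need not be independent.

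Of the 11 breakdown genes, 3 rose, 5 fell and 3 did not pass the test. The called share, 72.7%, was near the 66.6% of all tested genes (23.1% called higher and 43.5% lower). The class mixes lipases and phospholipases (1 higher and 5 lower, with 1 and 4 called) with genes filed under beta-oxidation (2 higher and 3 lower, with 2 and 1 called). The largest rise was that of BnaC03g69220D (C03, 58935280 to 58938442), described as phospholipase D alpha 2, which cleaves membrane phospholipids to phosphatidic acid. It stood at 9.75, 8.39 and 7.25 CPM in the long libraries, against 2.63, 2.15 and 3.65 CPM in the short libraries. The lowest long library was well above the highest short one. The log2 change amounted to 1.59 ± 0.25 (SE; edgeR adjusted p = 0.000949) and lay between 1.43 and 1.82 when 1 library was left out.

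Both gene copies of AT1G02660 fell. In Arabidopsis this locus is PLIP2, a plastid lipase. Triacylglycerol lipase is the class that the deposited table gives both copies. BnaC08g46040D (C08, 38363890 to 38366411) stood at 5.40, 5.82 and 7.60 CPM in the long libraries, against 15.7, 15.3 and 11.4 CPM in the short libraries. BnaCnng20480D (Cnn_random, 19243228 to 19245726) stood at 2.25, 2.41 and 2.93 CPM in the long libraries, against 6.40, 6.73 and 5.46 CPM in the short libraries. In both copies long replicate 3 was the highest long and short replicate 3 the lowest short library. The log2 fold changes were -1.17 ± 0.21 for the C08 copy and -1.29 ± 0.24 for the other (SE; edgeR adjusted p = 0.00348 and 0.00436). The call of the C08 copy ended without long replicate 1, at -1.08 (edgeR adjusted p = 0.0514). The C08 copy had between 2.40 and 2.60 times the counts of the other copy in the long libraries and between 2.08 and 2.46 times in the short libraries, so the copies kept nearly the same proportion in both pools.

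**Figure D3:**
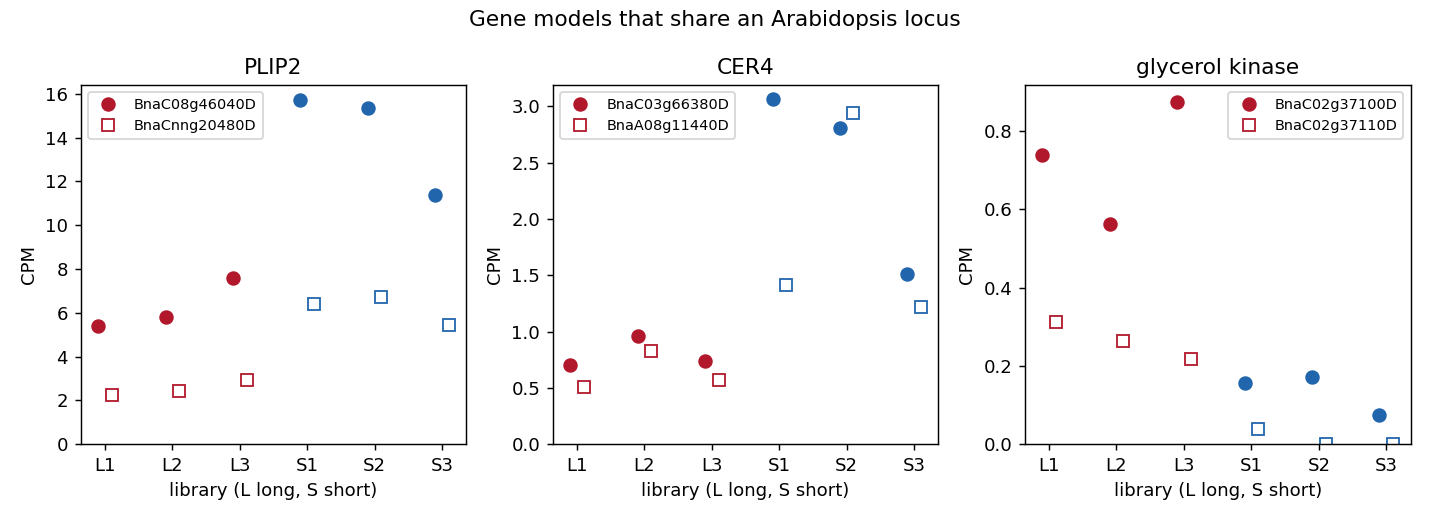
Level in CPM (vertical axes, from 0) of the 3 pairs of gene models that share an Arabidopsis locus, in each long (L1 to L3, red) and short library (S1 to S3, blue); filled circles and open squares are the models named in each key. Both PLIP2 and both CER4 copies lie lower, and both glycerol kinase models higher, in every long library than in any short one.

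A pair of genes filed under beta-oxidation is described as fatty acyl-CoA reductase 3, CER4 (ECERIFERUM 4), which in Arabidopsis makes the primary alcohols of cuticular wax and does not break lipids down. BnaC03g66380D (C03, 56208650 to 56217247) stood at 0.700, 0.958 and 0.743 CPM in the long libraries, against 3.06, 2.80 and 1.51 CPM in the short libraries. BnaA08g11440D (A08, 10385625 to 10391818) stood at 0.505, 0.826 and 0.568 CPM in the long libraries, against 1.41, 2.94 and 1.22 CPM in the short libraries. Neither copy overlapped between the pools. The log2 fold changes were -1.61 ± 0.35 and -1.54 ± 0.40 (SE), and the C03 copy passed while the A08 copy did not (edgeR adjusted p = 0.0155 and 0.0558). The difference between the copies was not tested. The call of the C03 copy ended without long replicate 1 (-1.52), long replicate 2 (-1.76), long replicate 3 (-1.56), short replicate 1 (-1.42) or short replicate 2 (-1.50), and with the replicate block (-1.58). The A08 copy passed without short replicate 3 (-1.77).

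Without the CER4 copies, the genes filed under beta-oxidation were 2 higher and 1 lower. BnaC09g17440D (C09, 14184196 to 14185333), described as a dienoyl-CoA isomerase (DCI1) that helps degrade unsaturated fatty acids, stood at 11.6, 15.3 and 12.3 CPM in the long libraries, against 7.50, 4.51 and 6.23 CPM in the short libraries. On the log2 scale the difference was 1.11 ± 0.22 (SE; edgeR adjusted p = 0.00762), and the call ended without long replicate 2 (0.98) or short replicate 2 (0.93). BnaC08g01840D (C08, 1350934 to 1352736) is described as 3-hydroxyisobutyryl-CoA hydrolase-like protein 5, a relative of an enzyme of valine breakdown. It stood at 6.26, 6.54 and 7.73 CPM in the long libraries, against 2.28, 3.79 and 3.84 CPM in the short libraries. The fitted log2 change was 1.05 ± 0.25 (SE; edgeR adjusted p = 0.0281), and the call ended without long replicate 1 (1.11), long replicate 2 (1.08), long replicate 3 (0.95) or short replicate 1 (0.84). BnaC05g25660D, a thioesterase family gene given At1g48320, had a fitted log2 change of -1.27 ± 0.44 (SE) and did not pass (edgeR adjusted p = 0.275).

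The other lipases and esterases were lower in the long pool. BnaC08g46740D, described as probable carboxylesterase 2 (CXE2), stood at 1.83, 1.42 and 1.53 CPM in the long libraries, against 3.34, 4.03 and 2.99 CPM in the short libraries. In log2 terms the change was -1.12 ± 0.27 (SE; edgeR adjusted p = 0.0343). This call was the weakest, since it ended without any 1 of the 6 libraries (-0.99 to -1.23), and with the replicate block (-1.11). BnaC03g65700D, filed under lysophospholipases and given At4g34920, stood at 1.98, 2.71 and 2.23 CPM in the long libraries, against 4.83, 5.37 and 4.13 CPM in the short libraries. The log2 change amounted to -1.05 ± 0.25 (SE; edgeR adjusted p = 0.0324). The call ended without long replicate 1 (-0.95), long replicate 2 (-1.18), long replicate 3 (-1.02), short replicate 1 (-1.04) or short replicate 2 (-0.95), and with the replicate block (-1.05). BnaAnng08490D, a lipase gene given At5g18640, stood at 0.583, 0.364 and 0.481 CPM in the long libraries, against 1.18, 1.06 and 1.14 CPM in the short libraries. Its log2 fold change of -1.24 ± 0.38 (SE) did not pass (edgeR adjusted p = 0.149).

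None of the sterol and sphingolipid genes passed the test, and of these 6 genes 4 were tested, against 66.6% called among all tested genes. These 4 averaged below 5 CPM in both pools, where 56.5% of all tested genes were called. So few genes allow no reading against that background. With the DESeq2 Wald test 0 of these 4 passed after adjustment as well. The authors' deposited table gives 3 as higher and 3 as lower. Sphingolipids are membrane lipids built on a long-chain base. BnaAnng30850D, given At5g23670 and described as LCB2b, a subunit of the serine palmitoyltransferase that makes this base, had 15, 5 and 9 counts in the long libraries, against 25, 29 and 25 counts in the short libraries. On the log2 scale the difference was -1.36 ± 0.46 (SE; edgeR adjusted p = 0.241). BnaA10g04810D, described as neutral ceramidase, which splits ceramide, had 69, 41 and 40 counts in the long libraries, against 20, 31 and 14 counts in the short libraries. Its gene model spans 625 bases, and whether it covers a whole gene was not tested. The fitted log2 change was 1.28 ± 0.38 (SE; edgeR adjusted p = 0.113), and it passed with TMM over the listed genes (2.06).

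A single library carried most of the reads of 1 gene. BnaCnng16290D, described as sphingosine-1-phosphate lyase, which ends the breakdown of sphingoid bases, had 52, 9 and 8 counts in the long libraries, against 1, 9 and 0 counts in the short libraries. Long replicate 1 stood far above the rest, the CPM of the pools overlapped, and the gene was too low to be tested. BnaC07g45160D, described as squalene synthase and given the Arabidopsis locus of SQS2, had 2 counts over the long pool and 23 over the short pool. The short pool was 11.1 times higher (95% exact counting interval 2.74 to 97.0). The remaining pair is filed with sterols but described otherwise. BnaA03g55570D, described as cytosolic sulfotransferase 15 and given At5g07000, had a fitted log2 change of -1.88 ± 0.55 (SE; edgeR adjusted p = 0.106). BnaA04g05620D, given At4g27270, had 57, 63 and 54 counts in the long libraries, against 17, 16 and 45 counts in the short libraries. Short replicate 3 stood apart from the other short libraries, and without it the fitted change of 1.21 ± 0.38 (SE, log2; edgeR adjusted p = 0.178) became 1.86 and passed. This gene also passed with TMM over the listed genes (1.97).

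**Figure D4:**
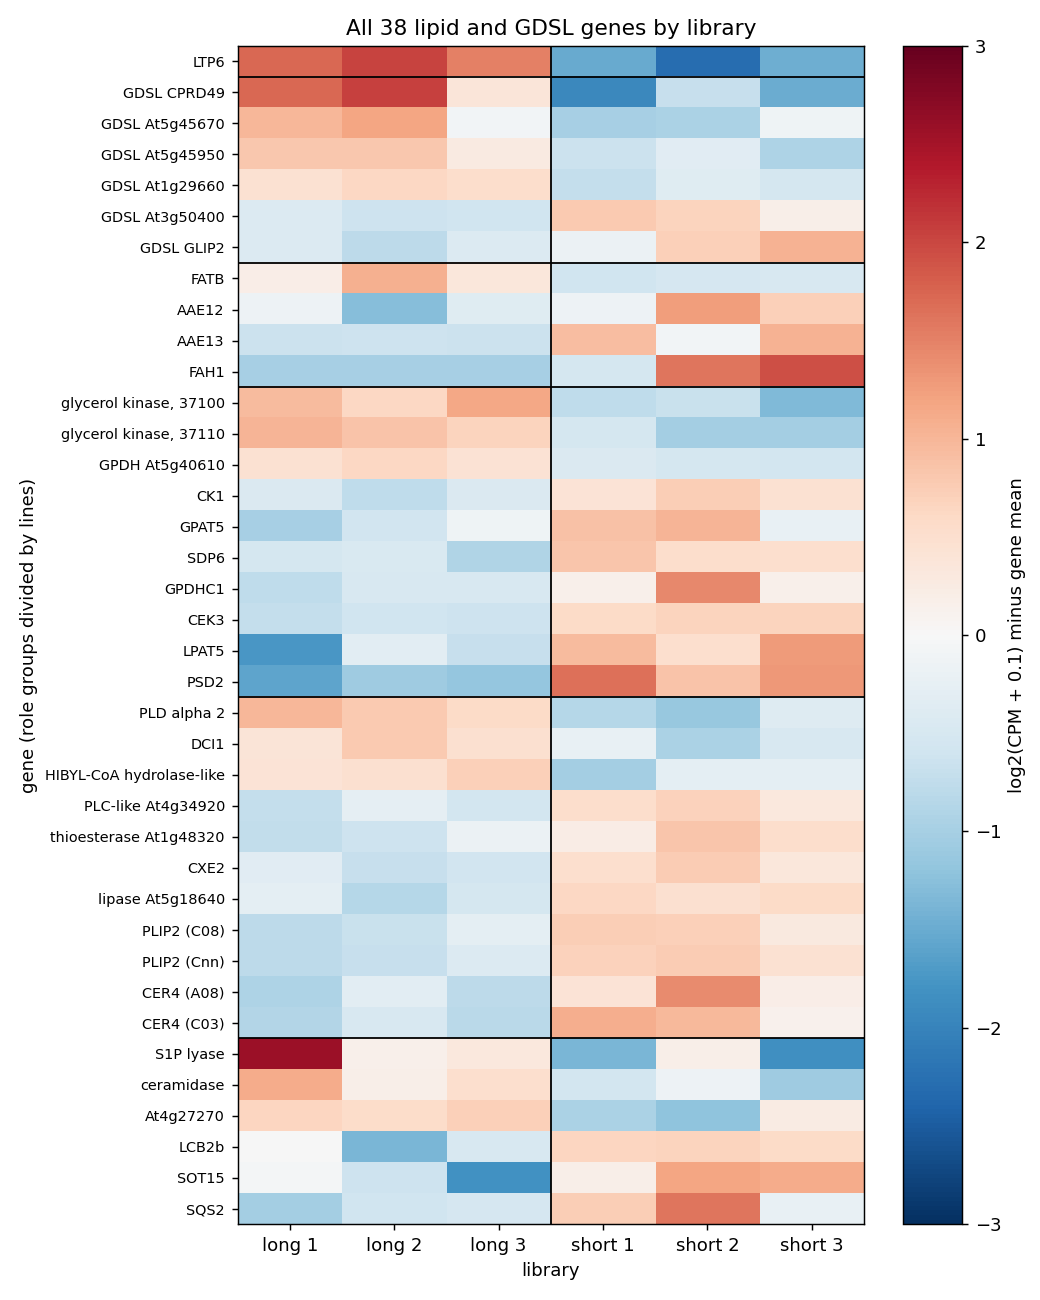
Level of all 38 genes (rows, divided by role group in the same order as the groups above) in the 3 long and 3 short libraries (columns), as log2(CPM + 0.1) minus the mean of the gene over the 6 libraries; red is above and blue below that mean. Most genes keep 1 colour within a pool; S1P lyase is far highest in long replicate 1 (52 counts), and FAH1 is near its long level in short replicate 1 (1 count).

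Per length, the highest lipid genes were different in the pools, by the authors' mean FPKM. In the long pool DCI1 (BnaC09g17440D) led with 12.3 ± 1.87 FPKM (SD, n = 3), followed by BnaC08g01840D with 11.5 ± 1.31, FATB with 10.6 ± 3.63 and the GDSL gene BnaC02g32000D with 9.89 ± 1.95 FPKM. These neighbours in the order lie within their SD of each other. The place of BnaC08g01840D rests on an implied length of 597 bases, since it averaged 6.84 ± 0.782 CPM (SD, n = 3) in the long pool. In the short pool CEK3 led with 16.5 ± 0.597 FPKM, above CK1 with 9.76 ± 1.23 FPKM by more than their SD, and AAE13 followed with 6.71 ± 2.48 FPKM. LTP6 ranked 7 of 38 in the long pool and 29 of 38 in the short pool, on the length given above. The lowest means were 0 FPKM for FAH1 in the long pool and 0.0533 ± 0.0924 FPKM for BnaC02g37110D in the short pool.

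**Figure D5:**
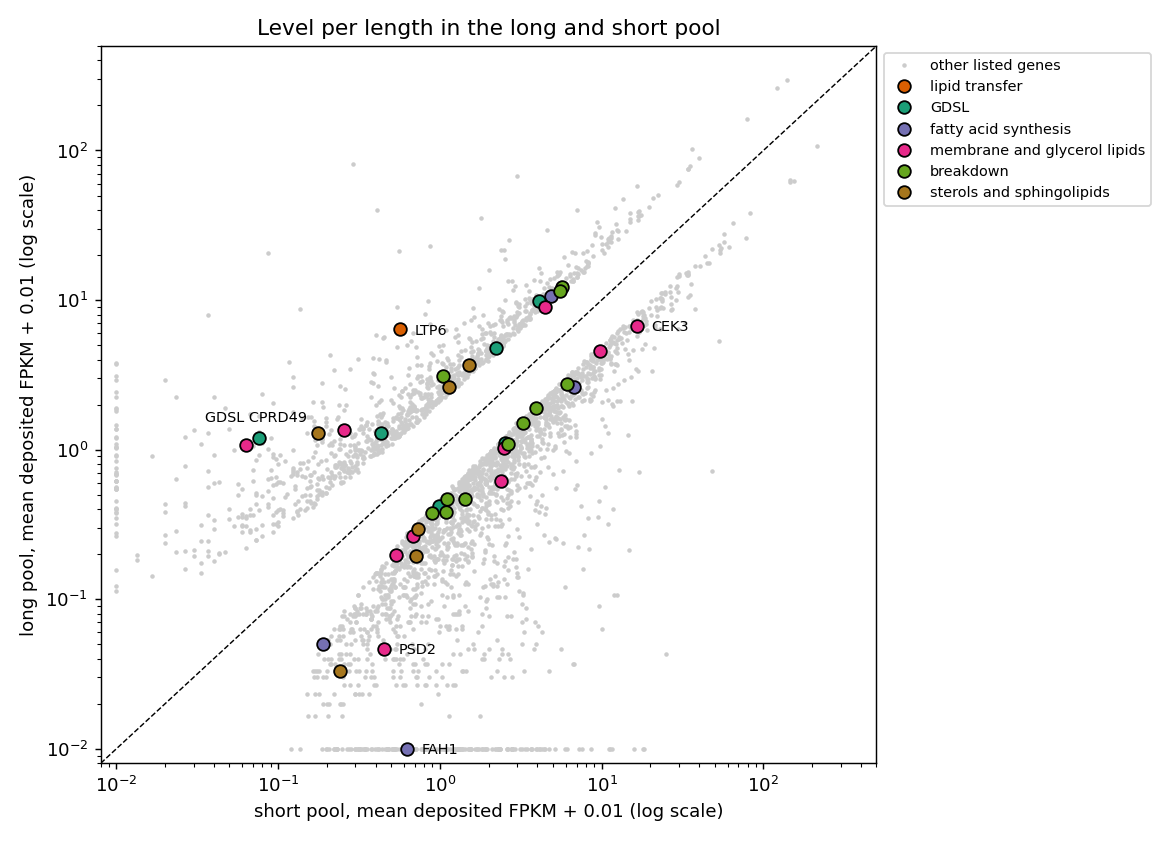
Mean deposited FPKM plus 0.01 of each gene in the long pool (vertical axis) against the short pool (horizontal axis), both on log scales, with the 38 lipid and GDSL genes coloured by role and other listed genes in grey; the dashed line marks equal levels. The empty band along the line reflects that only genes called by the authors are listed, none with a deposited log2 fold change below 1 in size. LTP6 (6.38 against 0.560 FPKM) and GDSL CPRD49 lie well above the line, and PSD2 and FAH1 well below it.

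All 14 genes that averaged at least 5 CPM in either pool passed the test, 8 higher and 6 lower. Of all tested genes at that level 95% passed, 37.5% higher and 57.5% lower. Of the 24 lipid genes below it, 19 were tested and 7 passed (36.8%), 2 higher and 5 lower, against 56.5% of all tested genes below it, 18% higher and 38.5% lower. This split by level was chosen after seeing the data. By subgenome, 3 of 13 genes on A chromosomes and 12 of 25 on C chromosomes were higher in long siliques by the authors' deposited table, against 33.5% of all listed genes on A and 35.3% on C. Of 11 tested lipid genes on A, 1 was called higher and 3 lower (36.4% called), where 65.5% of all tested genes on A were called, 21.2% higher and 44.3% lower. Of 22 tested on C, 9 were called higher and 8 lower (77.3% called), where 67.4% of all tested genes on C were called, 25% higher and 42.4% lower. The difference between the subgenomes was not tested. On placed chromosomes outside the left-out ends, listed genes within 500 kb of a lower lipid gene were lower in 52 of 61 cases (85.2%), against 69.7% around all lower listed genes. Around higher lipid genes 27 of 67 neighbours were higher (40.3%), against 42.7% around all higher listed genes. These windows overlap and were chosen after seeing the data, so the shares are a description.

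Other genes of cuticle and oil metabolism were looked up among the listed genes. Only 3248 of the 65264 genes tested by the authors are listed, so absence of a locus is usual and does not show that it was unchanged. Of 33 wax and cutin loci, 2 were listed, with 3 genes, 2 of which are the CER4 copies. The remaining one, BnaC02g05990D, given the locus of the cuticle regulator MYB16 but described as MYB39, lies in the first 6 Mb of C02. It averaged 7.91 ± 1.60 CPM in the long pool, against 3.49 ± 0.855 CPM in the short pool (SD, n = 3), a log2 difference of 1.18 ± 0.25 (SE; edgeR adjusted p = 0.0109). Leaving out each library in turn kept its call in 2 of 6 fits (1.01 to 1.37). Of 13 loci of seed oil storage and use, 0 were listed. Outside the lipid class, 10 genes of the broad class of protease inhibitor, seed storage and lipid transfer proteins were listed. Of these, 2 were higher and 8 lower, where 34.4% of all listed genes were higher. Of the 8 tested, 1 rose and 4 fell, against 23.1% and 43.5% of all tested genes, and so few genes allow no reading against that background. Of these 5 calls, 2 survived every omission of a single library. Both are low transcripts. BnaA09g55630D, whose closest named protein in the deposited table is a histidine-rich one, had 30, 21 and 21 counts in the long libraries, against 2, 1 and 1 counts in the short libraries, and a fitted log2 change of 4.11 ± 0.57 (SE; edgeR adjusted p = 0.000368). BnaA08g29350D had 3, 1 and 0 counts in the long libraries, against 31, 15 and 26 counts in the short libraries, and a fitted log2 change of -4.02 ± 0.67 (SE; edgeR adjusted p = 0.00175). The only gene of the group described as a non-specific lipid-transfer protein, LTP8 (BnaA09g52860D), stood at 2.48 ± 1.11 CPM in long siliques, against 5.54 ± 2.28 CPM in short siliques (SD, n = 3). Its pools overlapped and it did not pass (fitted log2 change -1.17 ± 0.36, edgeR adjusted p = 0.149), but it passed without long replicate 3 or without short replicate 3.

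Only uniquely mapped reads were counted, so copies with near-identical sequence in the A and C subgenomes may have lost reads, and levels of such copies are uncertain. The gene table of another Brassica napus assembly matched 0 of the gene identifiers, so names, loci and positions are those of the deposited table, on the Darmor reference.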

How the data were processed

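Silique wall RNA of 2 pools, 12 long- and 11 short-silique accessions, was sequenced as 3 libraries each. Per the labels and series design text, the authors aligned cleaned reads to Darmor and kept unique hits. Aligner and release: not given in the sources used here. The submitters' processing notes name edgeR and DESeq2. The authors deposited whole read counts per gene. FPKM values, which the authors scaled to gene length and library total, and their mean FPKM are also in the table, per the file headers. The authors' deposited log2 fold changes, p-values and FDR compare long with short. The table holds 3248 genes, all with an FDR of at most 0.0499, and 59362 blank rows, which were left out. No listed gene has a deposited log2 fold change smaller than 1 in either direction.

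Library totals were recovered by dividing counts by FPKM and span (genes of 200 or more counts and 5 or more FPKM), taking the median within 0.5% of the 95th percentile. Their p and FDR imply that 65264 genes were tested. The robust quasi-likelihood test of edgeR 4.0.16 (R 4.3.3) was run on all 2574 genes left by filterByExpr, with the recovered totals as library sizes. To pass, a gene needed p no higher than 0.005 and, adjusted by Benjamini-Hochberg over 65264 genes, no higher than 0.05. The spread was estimated from selected genes, so p-values may be too small. Standard errors were derived from log2 fold change and F.

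The members, lists, roles, tests and alternatives were chosen with earlier results of these data known. Genes described with values of every library are those of smallest p in each role group, up to 3 in each direction, and those sharing a locus with another member where either passed; further ones were added after their values were seen, to account for all 38. The rule also named genes with at most 3 counts in one pool and at least 10 in every library of the other (0 genes). Alternatives were TMM, DESeq2 size factors and column sums over the listed genes, the DESeq2 1.42.0 Wald test, no filter, a stricter threshold, a replicate block and leaving out each library. The fits were tested on simulated counts. Libraries of a pool differed by more than counting noise. Python 3.11.15, scipy 1.17.1, pandas 2.3.3 and matplotlib 3.10.9 were used.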

Additional observations from a re-analysis of the deposited data

How the results depend on the processing

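The DESeq2 Wald test and the fit with no filter called the same 21 lipid genes, and no tested gene changed sign under any alternative run (0 of 33). The scaling decides the falls. With TMM over the listed genes 1 gene passed as lower against 11, and DESeq2 size factors gave 1 and column sums 4. In the breakdown group these scalings left 0, 0 and 2 of 5 lower calls, in fatty acid synthesis 0 of 1 each, and in membrane and glycerol lipids 1, 1 and 2 of 5, while 2 sterol and sphingolipid genes passed as higher, against 0. The median upward shift of all genes was 0.78, 0.93 and 0.36 (log2). An adjusted p of at most 0.01 left 7 lower calls, 2 of them in breakdown. The replicate block also left 7 lower calls, 2 in breakdown, and 1 higher call in membrane and glycerol lipids. Deviations of same-numbered libraries from their pool means correlated by -0.00017, 0.0185 and -0.0214. No pairing by number was seen, but whether same-numbered libraries were handled together cannot be told from these values.

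Leaving out 1 library left between 13 and 20 calls, 6 to 10 higher and 5 to 10 lower. By group, GDSL had 0 to 1 lower, breakdown 1 to 3 higher and 1 to 5 lower, fatty acid synthesis 0 to 1 higher and 0 to 2 lower, membrane and glycerol lipids 1 to 2 higher, and sterols and sphingolipids 0 to 1 higher. These fits have fewer samples. At this depth a gene under about 0.1 CPM lies below the floor of 3 counts.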
